A study of Drosophila melanogaster with 35 samples.

Results

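The CLAMP-bound RNA sites called in the nucleoplasm of a male and a female Drosophila melanogaster cell line were compared, taking every region of both peak lists by position and strand. The lists hold 391 regions for S2 and 546 for Kc, 937 of the 3235 regions in the 5 lists analysed. S2 and Kc are established lines of embryonic origin, labelled male and female. Both were exposed to 254 nm ultraviolet light, which crosslinks RNA to protein, and then fractionated. RNA bound to CLAMP was then recovered from the nucleoplasm with a rabbit antibody by iCLIP, an immunoprecipitation of crosslinked RNA that maps protein contacts on transcripts. Each line has 4 nucleoplasm CLAMP libraries and 2 without antibody, with 1 list per line. The labels of 4 of 4 S2 and 3 of 4 Kc CLAMP libraries name their line's list, as do those of 1 no-antibody nucleoplasm library in each line and of the 1 Kc chromatin library without antibody. Which libraries entered each list was not given in the sources used here, and no peak list from control libraries was analysed here. All peaks carry the score 0, so a peak is present or not and has no height, read depth or replicate spread. Every comparison below is therefore of these 2 lists, not of repeated experiments, and every 95% interval, Wilson's for shares and Woolf's for odds ratios, covers counting error only.

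CLAMP recognises GA-rich DNA through zinc fingers, opens chromatin at promoters and guides the male-specific lethal complex to the male X chromosome. That complex, built with the roX non-coding RNAs, raises transcription of the male X, and in females Sex-lethal (Sxl), an RNA-binding splicing regulator, blocks it by repressing msl-2. CLAMP has also been linked to sex-specific splicing, which depends on small nuclear RNAs (snRNAs). The nucleoplasm holds the soluble RNAs of the nucleus, among them snRNAs, small nucleolar RNAs (snoRNAs) that guide rRNA modification, tRNAs and released transcripts.

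The lines' peaks overlapped mostly in rDNA and on scaffolds without annotation, and seldom elsewhere. Peaks are dense in rDNA, though unevenly between copies. In the full-length 28S copy they covered 51.8% of the sequence in S2 and 37.4% in Kc. Over the 3 full-length 18S copies coverage ran from 11.1 to 47.3% in S2 and from 31.5 to 43.3% in Kc. An overlap of 1 nt is therefore more easily met there than on the chromosome arms, where peaks are sparse. The overlap that peak density alone would give was not tested. Of the S2 peaks, 239 of 391 (61.1%) overlapped a Kc nucleoplasm peak by at least 1 nt on the same strand, and of the Kc peaks 240 of 546 (44%) overlapped an S2 peak. In the X rDNA block, which spans annotated rRNA genes and the sequence between them, 75 of 97 S2 peaks (77.3%) and 77 of 152 Kc peaks (50.7%) overlapped. Many peaks of the block lie in no annotated gene. The intergenic class held 62 S2 and 77 Kc peaks, of which 1 and 2 lay outside rDNA and scaffolds. On the scaffold that carries the annotated rRNA genes it was 45 of 81 S2 and 46 of 108 Kc peaks. The other scaffolds, which have no annotation, gave 114 of 171 (66.7%) and 112 of 177 (63.3%). By their names 67 of these S2 and 70 of these Kc peaks lie on scaffolds assigned to the X, and 104 and 107 on unplaced ones. S2 had peaks on 45 of these scaffolds, Kc on 46, and 39 were in both. Outside rDNA and scaffolds, 5 of 42 S2 peaks (11.9%, interval 5.19 to 25.0%) and 5 of 109 Kc peaks (4.59%) overlapped. These 5 sites lay in 3 genes of the same serine tRNA, in the U2 snRNA gene snRNA:U2:34ABa and in the U3 snoRNA gene snoRNA:U3:54Ab. With a gap of up to 50 nt allowed, 8 peaks of each list met the other list there, 19.0% of the S2 and 7.34% of the Kc peaks. Copies of rRNA and small RNA genes are nearly identical, so 1 bound RNA can appear as peaks at several copies. How reads that fit several copies were placed was not given in the sources used here.

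**Figure D1:**
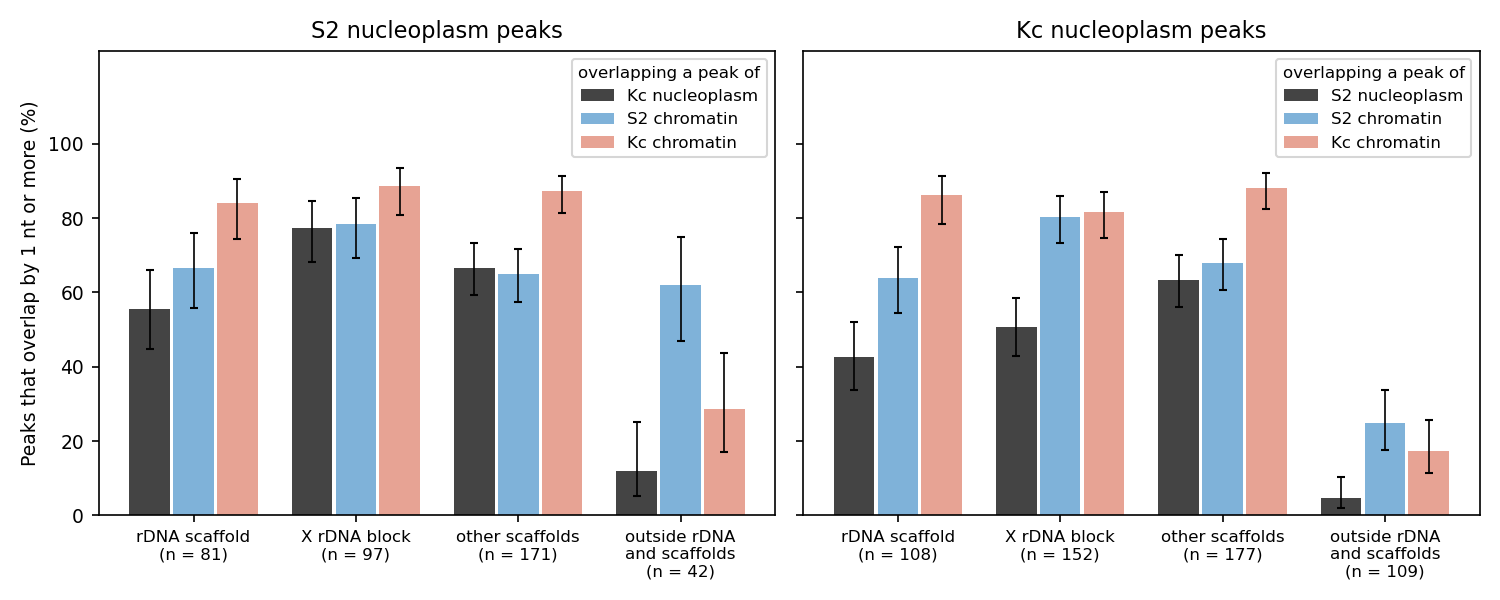
Share of nucleoplasm peaks (%, vertical axis) that overlap a peak of the other line's nucleoplasm list or of either chromatin list, for S2 (left) and Kc (right), by genomic region; bars are shares and lines Wilson 95% intervals. Outside rDNA and scaffolds the black bars fall to 11.9% for S2 and 4.59% for Kc.

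Where peaks overlapped, almost always in rDNA or on scaffolds, their edges lay close together and the Kc peak was usually the wider. Pairs were chosen by overlap, which itself limits the distance between edges. The 256 overlapping pairs had a median distance of 10 nt between starts and 7 nt between ends. The Kc peak was wider in 202 pairs, the S2 peak lay wholly within the Kc peak in 160, and the reverse held in 20. In the 5 pairs outside rDNA and scaffolds the Kc peak was wider in 2, and the median width was 33 nt in both lines. Shared Kc peaks had a median width of 74 nt and unshared ones of 49 nt, while in S2 the medians were 53 and 48 nt. A wider peak meets the other list more easily, so the overlap rule itself favours wide peaks. The sets also differ in place. Outside rDNA and scaffolds lay 104 of the 306 unshared Kc peaks but 5 of the 240 shared ones, and all 109 Kc peaks there had a median of 36 nt. Shared and unshared widths were not compared within the same kind of place.

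The nucleoplasm peaks were also set beside the chromatin lists, which hold 1416 regions for S2 and 874 for Kc. S2 nucleoplasm peaks overlapped an S2 chromatin peak in 68.3% and a Kc chromatin peak in 80.6% of cases, and Kc nucleoplasm peaks in 61.9% and 71.8%. Outside rDNA and scaffolds, 26 of 42 S2 peaks (61.9%) overlapped an S2 chromatin peak and 12 (28.6%) a Kc chromatin peak. For the 109 Kc peaks the counts were 27 (24.8%) and 19 (17.4%). In that part of the genome both nucleoplasm lists met the S2 chromatin list, the larger of the chromatin lists, more often than they met each other.

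Each peak was given 1 class from the annotation at its midpoint, and shares were compared between the lists by 2-sided Fisher's exact tests with Benjamini-Hochberg adjustment. Over all peaks, 3 of 11 classes (27.3%) differed at an adjusted p under 0.05. Coding sequence held 4 S2 and 24 Kc peaks (odds ratio S2 over Kc 0.248, Fisher's exact adjusted p = 0.0156). Introns held 1 and 12 (odds ratio 0.164, exact adjusted p = 0.0393). Among peaks of at least 30 nt neither call held (exact adjusted p = 0.144 for each), and with the class taken over the whole peak the intron call was lost (exact adjusted p = 0.0664). Unannotated scaffolds held 171 and 177, a larger share of the S2 list (odds ratio 1.62, exact adjusted p = 0.00514). These scaffolds hold repeated copies, which the test counted as independent peaks. The class was not recounted with copies taken once. Exons of rRNA held 117 S2 peaks and 187 Kc peaks, and the difference in their shares did not pass the test (odds ratio 0.821, exact adjusted p = 0.328).

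Outside rDNA and unannotated scaffolds, exons of small non-coding RNAs made up 27 of 42 S2 peaks, or 64.3% (interval 49.2 to 77.0%), against 34 of 109 Kc peaks, or 31.2% (23.3 to 40.4%). This was the 1 class of 10 (10%) that passed the test there (odds ratio 3.88, 95% interval 1.85 to 8.15, Fisher's exact adjusted p = 0.00364). With each small RNA counted once over its copies, a setting chosen after seeing the data, the counts were 13 of 28 against 23 of 98 and the difference did not pass (odds ratio 2.80, 95% interval 1.18 to 6.64, exact adjusted p = 0.310). In these same peaks the smaller S2 shares of coding sequence (odds ratio 0.408) and introns (0.282) did not pass (exact adjusted p = 0.377 for each). Exons of protein-coding genes together held 9 of 42 S2 peaks (21.4%) and 46 of 109 Kc peaks (42.2%).

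**Figure D2:**
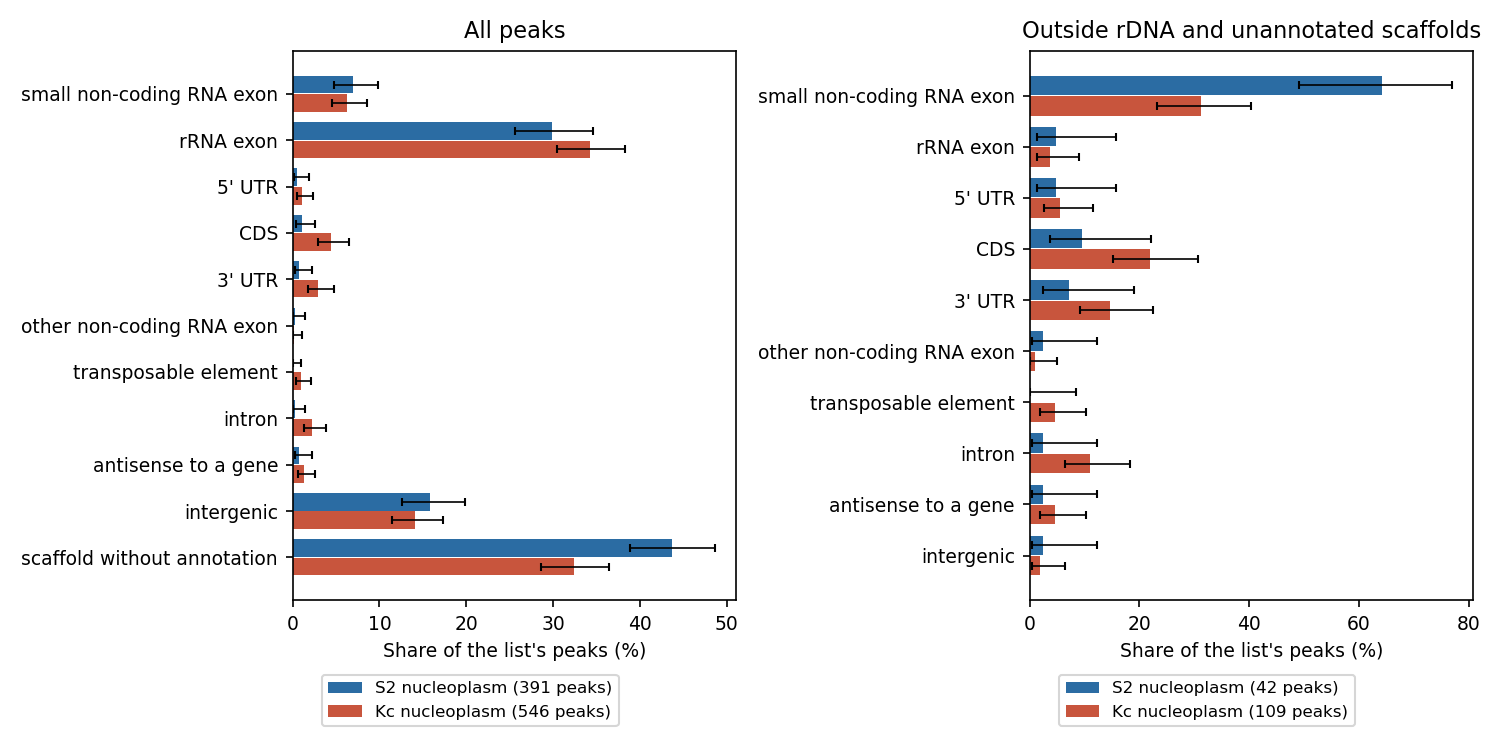
Share of each list's peaks (%, horizontal axis) by annotation class, for all peaks (left) and for peaks outside rDNA and unannotated scaffolds (right); bars are shares and lines Wilson 95% intervals. In the right panel small non-coding RNA exons hold 64.3% of S2 and 31.2% of Kc peaks.

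The U1 snRNA, which pairs with the 5′ splice site at the start of spliceosome assembly, carried peaks of both lines on different parts of the same genes. The S2 peaks covered nt 109 to 165 of snRNA:U1:21D and snRNA:U1:95Ca and nt 128 to 165 of snRNA:U1:95Cb, the 3′ end of a gene of 164 nt. The Kc peaks covered nt 22 to 71 of U1:21D and U1:95Ca and nt 17 to 68 of U1:95Cb, nearer the 5′ end. In none of the 3 genes did the lines' peaks overlap, though those in U1:21D and U1:95Ca came within 50 nt of each other. The 3 S2 peaks overlapped S2 chromatin peaks, and the 3 Kc peaks overlapped neither chromatin list. The genes are near-identical copies, so the 3 are not independent of each other.

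The other snRNA peaks were fewer in Kc. In snRNA:U2:34ABa, a copy of the snRNA that pairs with the intron branch point, S2 covered nt 103 to 165 and Kc nt 103 to 168, and both peaks overlapped both chromatin lists. S2 also had a peak at nt 69 to 112 of snRNA:U2:14B. S2 peaks further lay at nt 20 to 47 of snRNA:U5:38ABb and snRNA:U5:63BC, copies of the snRNA that holds the exon ends during splicing. Kc had no peak in these last 3 genes. In total 7 snRNA genes had an S2 peak, and the 4 with a Kc peak were among them.

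Among snoRNAs the lines shared 1 gene, a copy of U3, the box C/D RNA needed to process the pre-rRNA into 18S rRNA. Toward its 3′ end S2 covered nt 116 to 182 of snoRNA:U3:54Ab and nt 117 to 152 of snoRNA:U3:9B, and Kc nt 106 to 191 of snoRNA:U3:54Ab and nt 116 to 180 of snoRNA:U3:54Aa. At its 5′ end, nt 1 to 42, S2 had a peak in both U3:54Ab and U3:9B and the Kc nucleoplasm list had none. The one in U3:9B overlapped a Kc chromatin peak and no S2 chromatin peak, and the one in U3:54Ab overlapped neither chromatin list. The U3 gene is 210 nt long in the copies at 54A and 213 nt in U3:9B. The other S2 snoRNA peak was in snoRNA:Psi28S-1135e, a pseudouridylation guide within the ribosomal protein gene RpS5a. Kc had peaks in 6 other snoRNA genes, none of them with an S2 peak: the methylation guides snoRNA:Me28S-A1322 (within eEF1alpha1), snoRNA:Me28S-A1666a (within Uhg1) and snoRNA:Me28S-G2703a (within Uhg5), snoRNA:Or-CD4 (also within Uhg5), snoRNA:Or-CD12 (within RpL28) and snoRNA:Psi18S-1295 (within RpS20). A Kc peak at nt 128 to 161 of lncRNA:CR40469, an RNA of 214 nt, completes the small RNAs that are not tRNAs.

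Nuclear tRNA genes held 15 S2 peaks in 15 genes and 17 Kc peaks in 17 genes, mostly of different tRNAs. S2 peaks fell on 8 tRNA families by amino acid and anticodon and Kc peaks on 9, with 2 families, Ser-AGA and Lys-CTT, in both lists and 15 in either. Phe-GAA held 4 S2 peaks among 8 annotated copies and no Kc peak. Glu-TTC and Asn-GTT held 2 S2 peaks each and no Kc peak. Glu-CTC held 3 Kc peaks and Arg-CCT, Met-CAT and Pro-CGG held 2 each, with no S2 peak. Ser-AGA had 3 S2 and 4 Kc peaks, and the 3 S2 genes were among the 4. Lys-CTT had 1 peak in each list, in different genes.

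In both lists the tRNA peaks lay toward the 3′ end. All 15 S2 and all 17 Kc peaks had their midpoint 3′ of the gene's own. S2 peaks started between nt 22 and 51 (median 34) and ended 0 to 3 nt past the annotated gene. Kc peaks started between nt 24 and 51 (median 34) and ended 0 to 1 nt past it. All 15 S2 and 14 of 17 Kc tRNA peaks overlapped S2 chromatin peaks, while 6 of 15 and 5 of 17 overlapped Kc chromatin peaks.

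**Figure D3:**
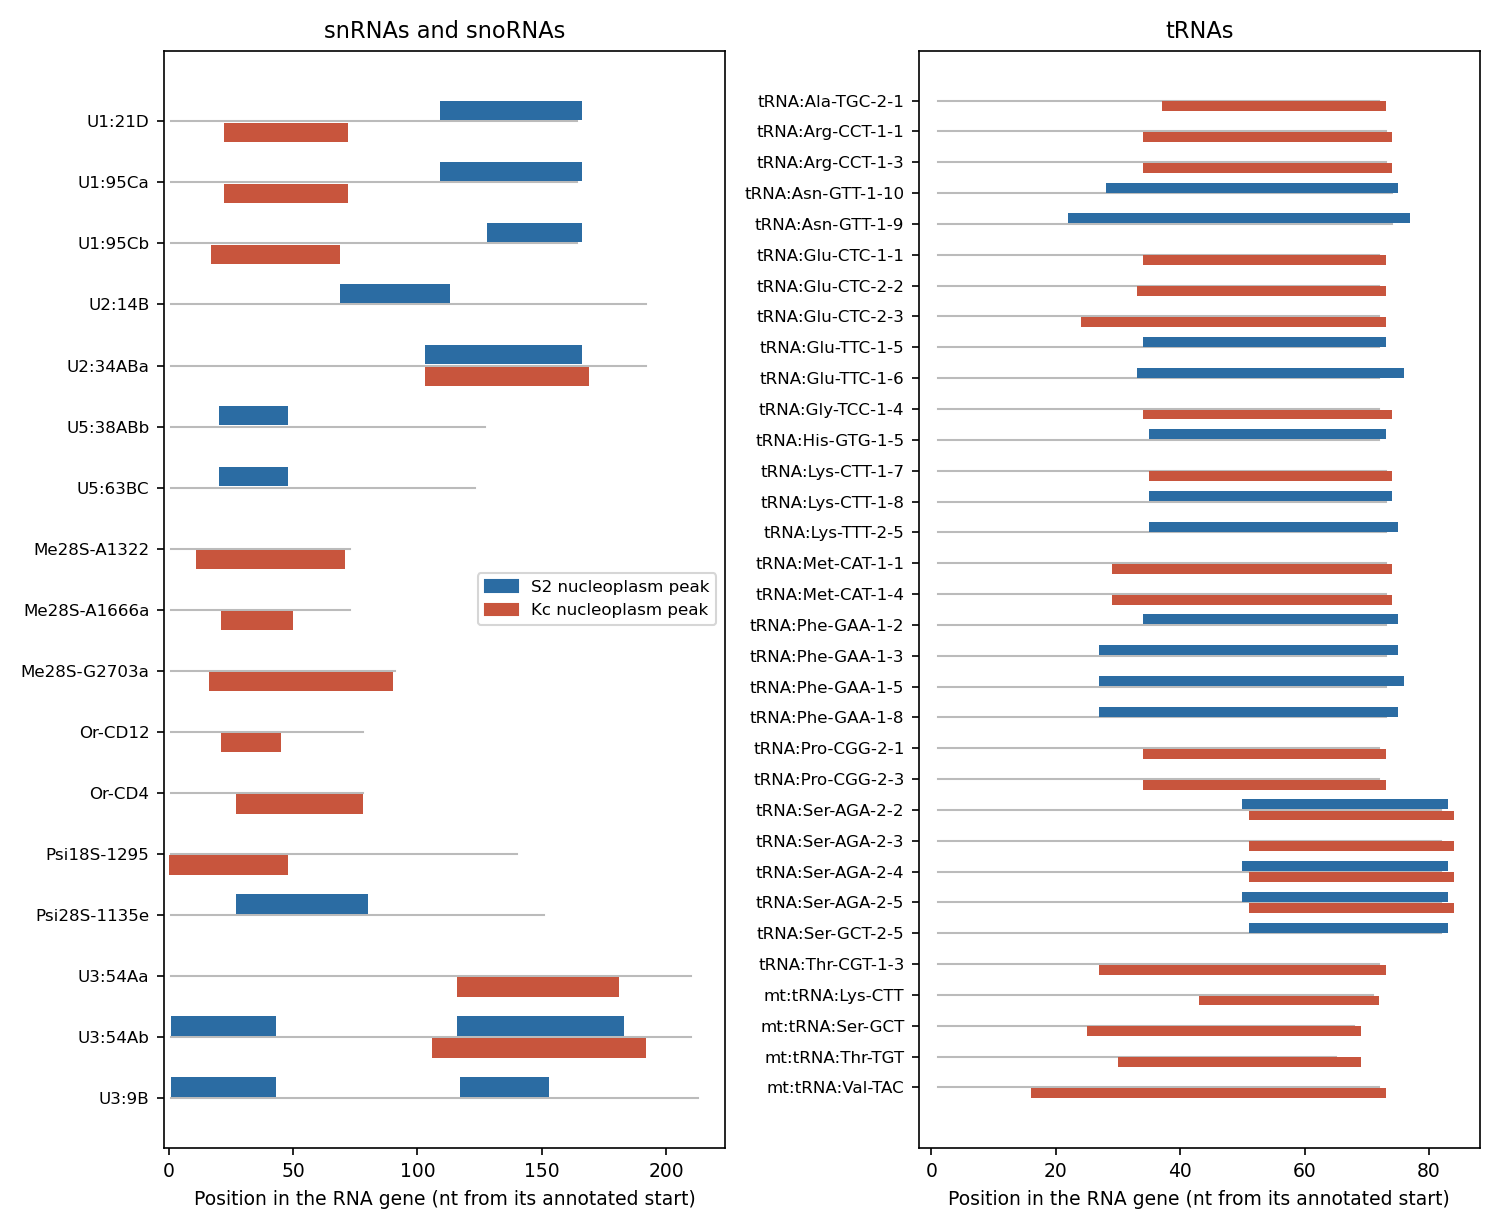
Position of every nucleoplasm peak in snRNA and snoRNA genes (left) and tRNA genes (right), in nt from the annotated gene start; grey lines are the genes, blue bars S2 peaks and red bars Kc peaks. The U1 bars of the lines lie apart, at nt 109 to 165 in S2 and nt 22 to 71 in Kc for U1:21D, and the tRNA bars of both lines lie toward the 3′ end.

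Mitochondrial RNAs, which are made and kept outside the nucleus, had 2 S2 and 8 Kc peaks. None overlapped between the lines, which with so few peaks allows a share of up to 65.8% for S2 and 32.4% for Kc, above the 11.9% and 4.59% found outside rDNA and scaffolds as a whole. In the large mitochondrial rRNA (mt:lrRNA, 1324 nt) S2 covered nt 27 to 74 and nt 261 to 307. Kc covered nt 619 to 674, nt 698 to 745 and nt 938 to 991 of mt:lrRNA and nt 146 to 206 of the small one, mt:srRNA. The other 4 Kc peaks lay in the mitochondrial tRNAs for Lys, Ser, Thr and Val. Without the mitochondrial peaks the odds ratio for small RNA exons outside rDNA, an alternative added after seeing the data, was 4.78 (Fisher's exact adjusted p = 0.000486).

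Cytoplasmic rRNA is the largest annotated target in both lines. Of all rRNA exon peaks, the few mitochondrial ones included, 28S held 76 of 117 S2 peaks (65.0%) and 111 of 187 Kc peaks (59.4%), and 18S held 32 (27.4%) and 56 (29.9%). Of the 28S peaks, 49 of each list overlapped the other line (64.5% of S2 and 44.1% of Kc), and of the 18S peaks 21 of S2 (65.6%) and 22 of Kc (39.3%). These shares lie near the 61.1% and 44% over all peaks. The 5S rRNA, transcribed apart from the others, had no peak in either list.

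Along 18S, the RNA of the small subunit, coverage was partly common and partly of 1 line alone. Over the 3 full-length copies of 1995 nt, S2 peaks covered 985 nt (49.4%) in at least 1 copy and Kc peaks 1106 nt (55.4%), with 683 nt in both, 302 nt in S2 alone and 423 nt in Kc alone. In every copy, S2 covered 179 nt and Kc 417 nt, with 51 nt, nucleotides 254 to 304, in both. Nucleotides 1149 to 1217 had an S2 peak in all 3 full copies and in both 18S pseudogene copies of the X, and no Kc nucleoplasm peak in any of the 5. Both chromatin lists, S2 and Kc, had peaks there in all 5 copies. At the 5′ end of 18S, its first 40 nt, the Kc nucleoplasm list had a peak in 5 of 5 copies and the S2 one in 1 of 5. Both chromatin lists, S2 and Kc, also had peaks there in some copies and not in others. Copies of 1 RNA were not called alike in S2: the 3 full copies held 4, 5 and 13 S2 peaks but 11, 11 and 10 Kc peaks.

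The 28S rRNA, which carries the peptidyl transferase centre, had peaks of both lines in 9 annotated copies, most of them annotated as pseudogenes. The Kc list is the larger, with 546 peaks to 391. In 8 of the 9 copies Kc had more peaks than S2, and 1 copy had the opposite order. In that copy, the full-length 28SrRNA:CR45844 (3970 nt), S2 had 31 peaks over 2056 nt (51.8%) and Kc 18 peaks over 1484 nt (37.4%), with 1057 nt in both. The widest stretch of it called in S2 alone was nt 664 to 747, and the widest in Kc alone was nt 3110 to 3174. The shorter copy 28SrRNA:CR45837, by contrast, had 10 S2 and 19 Kc peaks.

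In 5.8S rRNA, of 123 nt, S2 had 4 peaks in 4 copies and Kc 11 in 7. Each of the 4 S2 peaks covered the 3′ part, starting at nt 51 to 63, and each overlapped a Kc peak. Kc also covered the 5′ part in 4 copies, from a few nt ahead of the gene to nt 49 or 52, where S2 had no peak. Both peaks on 2S rRNA, the short RNA that insects cleave from the same precursor, were from Kc. Spacers of the precursor pre-rRNA:CR45847, which are removed as the mature rRNAs are released, held 3 peaks of each line in different spacers. The S2 peaks lay ahead of 18S, at nt 163 to 204, nt 244 to 288 and nt 405 to 457 of the unit. The Kc peaks lay further along, 1 between 18S and 5.8S at nt 3037 to 3095 and 2 between 2S and 28S at nt 3956 to 4007 and nt 4010 to 4068.

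**Figure D4:**
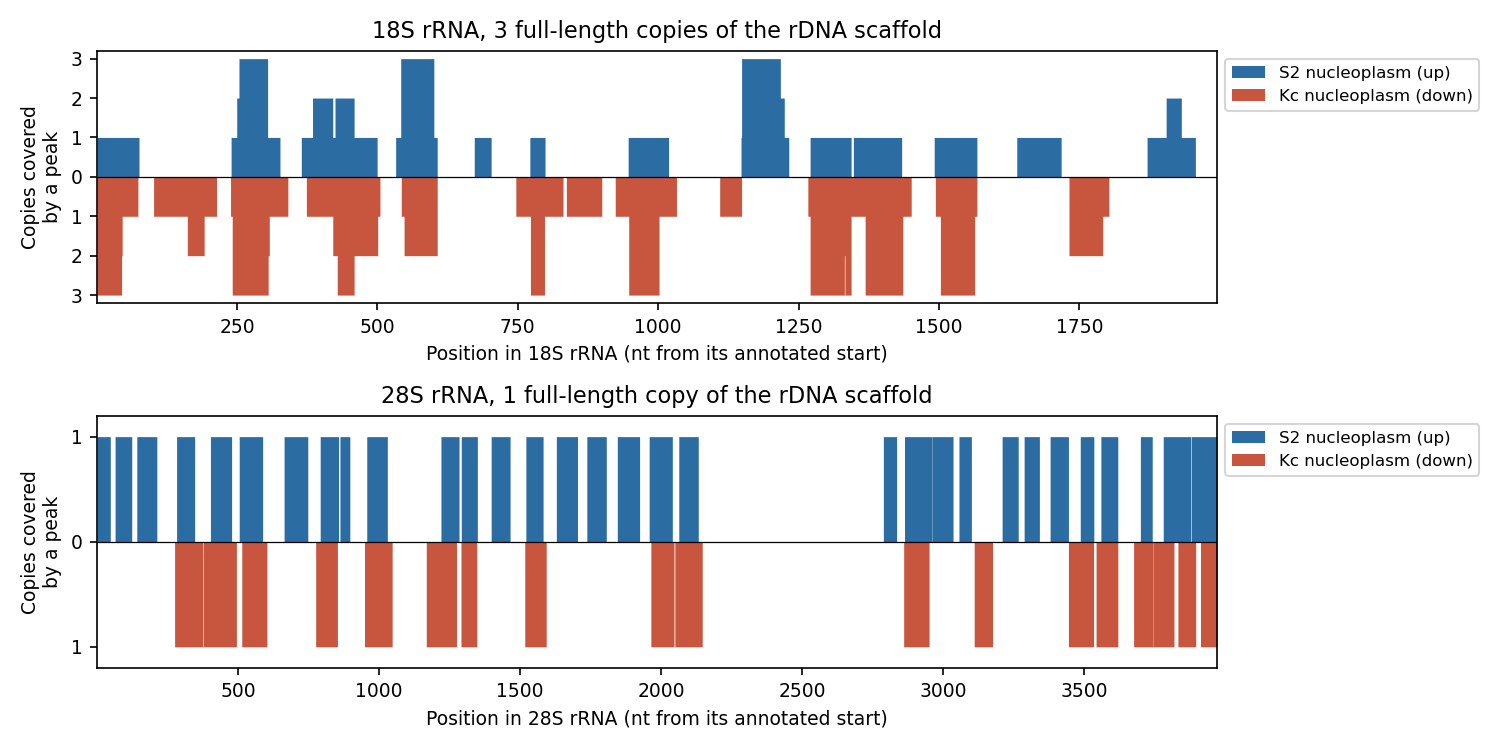
Number of full-length copies covered by a peak (vertical axis, S2 upward in blue, Kc downward in red) along 18S rRNA (top, 3 copies) and 28S rRNA (bottom, 1 copy), in nt from the annotated gene start. S2 covers nt 1149 to 1217 of 18S in all 3 copies and Kc in none, and in this 1 copy of 28S S2 has 31 peaks to 18 in Kc, whereas all 28S copies together hold 76 S2 and 111 Kc peaks.

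Among protein-coding genes, 10 had an S2 peak and 60 a Kc peak, each gene a single peak, and no gene was in both lists. Over all kinds 28 target genes were in both, which is 50% of 56 for S2 and 22.8% of 123 for Kc. Of these 28, 19 were nuclear rRNA genes and 1 was the mitochondrial rRNA gene mt:lrRNA. With copies of an RNA counted once, 10 RNAs were in both lists. Among these 10 was the tRNA Lys-CTT, whose peaks lay in different genes and so outside the 28. Of 13986 annotated protein-coding genes, 0.0715% had an S2 peak and 0.429% a Kc peak. With shares so small, the lack of a common protein-coding gene does not set the lines apart. None of the 9 S2 exon peaks overlapped a Kc nucleoplasm peak, which allows a share of up to 29.9%, and none of the 46 Kc exon peaks overlapped an S2 one, which allows up to 7.71%. None of the 9 S2 exon peaks overlapped a chromatin peak of either line, and 1 of the 46 Kc peaks did, in the coding sequence of the small GTPase gene Rab10 (Kc chromatin). Recurrence was also counted by gene, here with intron and transposable element peaks included and at any site of the gene. Some recurred at the same site: the pHCl-1 intron peak overlapped an S2 chromatin peak and the Tg peak a Kc chromatin peak. The share of all genes with a chromatin peak was not computed here, so these counts have no base to compare with. Of the 10 S2 genes, 4 (CG1317, Hipk, Karybeta3 and pHCl-1) recurred somewhere in the S2 chromatin list and 0 in the Kc chromatin list. Of the 60 Kc genes, 11 recurred in the S2 chromatin list and 6 in the Kc one, with Act5C, Tg, aqz and sqd in both.

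The S2 peaks in protein-coding genes were short, with a median of 27 nt, and 3 of 10 reached 30 nt. In 3′ untranslated regions they lay in RnrS, the small subunit of ribonucleotide reductase (chr2R:11983403-11983431, dm6, minus strand), in Rap1, a small GTPase (chr3L:1860184-1860206), and in CG31523 (chr3R:4465441-4465465). In 5′ untranslated regions they lay in Hipk, a nuclear kinase (chr3L:543186-543208), and CG31224 (chr3R:18656973-18657016). Peaks in coding sequence included those in Karybeta3, a nuclear import receptor (chr3R:4652854-4652884), CG1317 (chr3L:2368863-2368891) and CG3847 (chrX:6347843-6347867). The intronic peak was in pHCl-1, a pH-sensitive chloride channel, and at 18 nt it was the shortest S2 peak. CG3847 was the 1 X-linked gene of the 10, and 12 of the 60 Kc genes were X-linked. Outside rDNA and scaffolds the X held 7 of 42 S2 peaks (16.7%) and 17 of 109 Kc peaks (15.6%).

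The Kc peaks in protein-coding genes had a median of 32 nt, and 34 of 60 reached 30 nt. The widest, 133 nt in the transglutaminase gene Tg (chr2L:8016330-8016462), lay inside a copia retrotransposon, and a peak of 43 nt in CG12535 lay inside a 3S18 element, so both count as transposable element peaks by class. Next came an intronic peak of 62 nt in mam (mastermind, a Notch co-activator, chr2R:14045062-14045123) and 1 of 57 nt in the 3′ untranslated region of 14-3-3zeta, a phosphoprotein adapter (chr2R:10108148-10108204). The 3′ untranslated region of sqd, an hnRNP that acts in splicing and mRNA localisation, held 1 of 50 nt (chr3R:13641619-13641668), and the coding sequence of calmodulin (Cam) 1 of 49 nt (chr2R:12264777-12264825). Sxl held 1 of 48 nt in an intron (chrX:7096195-7096242, minus strand). The others of the 12 widest were 46 nt in Larp4B, an RNA-binding La-related protein, 43 nt in vig2, 42 nt in uex, 41 nt in gzl, a RING ubiquitin ligase, and 40 nt in CG4502. That last place is a tie, with peaks of 40 nt also in CG9932, SNF4Agamma and Tis11.

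Lists of genes by role held few peaks, and none from S2. Over all 13986 annotated protein-coding genes, 0.429% had a Kc peak and 0.0715% an S2 peak. Of 10 sex determination genes, Sxl and fru, a transcription factor with sex-specific splice forms, had a Kc peak, that of fru of 28 nt in an intron. Of 10 dosage compensation genes, roX1, roX2 and msl-2 among them, 0 had a peak in either nucleoplasm list. The splicing regulators and hnRNPs gave 1 of 17 (sqd), the translation factors 1 of 33 (eIF3b, an initiation factor subunit), and the cytosolic ribosomal proteins 1 of 92 (RpL41). Of 21 heat shock genes 2 had a Kc peak, namely Grp170, a chaperone of the endoplasmic reticulum, and lncRNA:Hsromega, a nuclear RNA that gathers hnRNPs into speckles. Of 20 GAGA-site, insulator and Polycomb genes 1 did (pho, a DNA-binding Polycomb recruiter), and of 20 cytoskeletal genes 2 did (Act5C, an actin, and chic, the profilin). Peaks carry no expression level, so these lists cannot identify the cells: of 12 hemocyte markers ush alone had a peak (Kc, intron, 25 nt), and of 12 markers of neurons, muscle, germ line, gut and fat body 0 did.

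Few peaks lay in transposable elements or against the annotated strand. Outside rDNA, Kc had 5 peaks in transposable elements and S2 had 0 of 42, which allows a share of up to 8.38%. These 5 were the copia element in Tg, 3 copies of the 3S18 element with a peak of 43 nt each, and an INE-1 element. Antisense to a gene lay 1 of 42 S2 peaks (2.38%) and 5 of 109 Kc peaks (4.59%) there. The widest S2 peak on a chromosome arm, 147 nt (chr3R:7253665-7253811), ran antisense to Gld, the glucose dehydrogenase gene, and overlapped no peak of the other 3 lists compared. On the annotated strand, an S2 peak of 39 nt lay in the pseudogene CR31958, and Kc had none there.

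Peak widths differed between kinds of target in both lines. Over all peaks the median was 52 nt in S2 (range 18 to 188) and 58.5 nt in Kc (19 to 133). Within the X rDNA block it was 50 nt in S2 and 61 nt in Kc, on the rDNA scaffold 57 and 61.5 nt, and on other scaffolds 55 and 65 nt. In small RNA exons it was 42 nt in S2 and 40 nt in Kc. Coding sequence had 30 nt in S2 (4 peaks) and 29.5 nt in Kc (24 peaks).

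**Figure D5:**
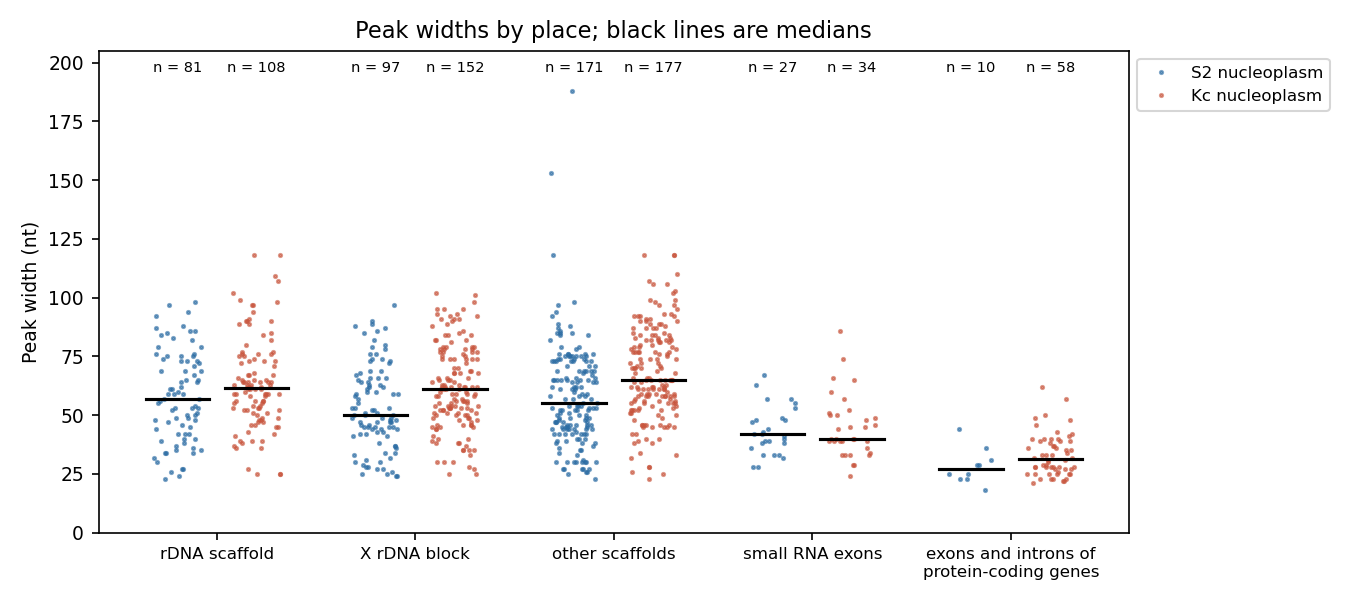
Width of every nucleoplasm peak (nt, vertical axis) by place, S2 in blue and Kc in red; points are peaks and black lines medians. Peaks in rDNA and scaffolds are wider (medians 50 to 65 nt) than those in small RNA exons (42 nt in S2, 40 nt in Kc) or protein-coding genes, shown here without those classed as transposable elements.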

How the data were processed

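Peak lists from nucleoplasm iCLIP of CLAMP in S2 and Kc cells were compared. Per the submitters' processing notes, the dm6 build was used with STAR 2.5.2b-2, cutadapt 3.5, UMI-tools and FastQC. Per the labels' protocols, peaks were called in the Galaxy CLIP-Explorer workflow; neither caller nor threshold is named in the sources used here. The deposited lists hold coordinates, a strand and a score of 0 for every peak, so depth is unknown. Ensembl release 115 was used for annotation. The class of a peak is that of its midpoint on its strand, with small RNAs up to 500 nt taken first, then rRNA, other exons, transposable elements and introns. The annotation's rDNA scaffold was matched by name: 98.7% of 77 S2 and 96.2% of 105 Kc plus-strand peaks on it fell in annotated rRNA genes. The X rDNA block spans X 23200802 to 23538283.

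Overlap needs 1 nt on the same strand. Fisher's exact tests treat peaks as independent, and odds ratios add 0.5 to every count (scipy 1.17.1, numpy 2.4.6, matplotlib 3.10.9, Python 3.11.15). The scripts were tested on simulated data. Alternatives were reciprocal overlap, identical ends, a gap of 50 nt, strand ignored, a width limit of 30 nt, merged peaks, class over the whole peak, and copies counted once. The members and gene lists were chosen with earlier results of these data known. Named were the S2 protein-coding targets except 1 that is not reported here, Kc ones with several peaks or the 12 widest, listed genes with a peak, all snRNA, snoRNA and mitochondrial genes and the 6 tRNA families with most peaks; Rab10, Gld, CR31958, CR40469 and further families were named after their values were seen. Sequence motifs were not analysed here.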

Additional observations from a re-analysis of the deposited data

How the results depend on the processing

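The overlap of S2 peaks with Kc peaks (61.1%) was 50.9% when each peak had to be covered by at least 50%, 1.02% for identical ends and 75.7% with a gap of 50 nt allowed. The Kc value (44.0%) was 36.4%, 0.733% and 59.3% under the same settings. Outside rDNA and scaffolds, 0% of either list had identical ends; the other settings moved neither value beyond its interval. The count of classes that differ fell from 3 to 1 without rDNA and scaffolds. Genes in both lists fell from 28 to 10 with copies counted once. The small RNA odds ratio of 3.88 was 2.80 with copies counted once (Fisher's exact adjusted p = 0.310; range over its alternatives 0.000486 to 0.310). At 30 nt or more, coding sequence lost its call (odds ratio 0.273, Fisher's exact adjusted p = 0.144), as did introns (0.106), while 3′ untranslated regions gained one (0.0543, adjusted p = 0.0104); introns also lost it over the whole peak (0.179, adjusted p = 0.0664). The direction reversed, without a call, for antisense (1.96) and intergenic peaks (0.988) at 30 nt or more, other non-coding RNA exons with strand ignored (0.596) and rRNA exons without rDNA (1.45). Of 53 class values, 42 kept direction and side of the threshold. The cause was not tested.

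No paired analysis was possible because each line has 1 pooled list with no column per replicate, and for the same reason leaving out replicates was not run. Unknown depth limits every absence, since a site missing from a list was not detected at a depth that is not known.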
